A study of Mus musculus with 16 samples.

Results

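The genes described here were 10 tubulin isotypes, the beta-tubulin genes Tubb6, Tubb2a, Tubb2b, Tubb3, Tubb4b and Tubb5 and the alpha-tubulin genes Tuba1a, Tuba1b, Tuba1c and Tuba4a, out of 29730 genes with counts. They were found by matching the Ensembl identifiers of the count table to gene symbols in the GENCODE annotation of the mouse build GRCm38, and all 10 had a row. The set was selected on the measured levels of these genes in the same libraries, with earlier results known and Tubb6 named first. The comparison behind the choice is not recorded, so the values of Tubb6, and those of all isotypes under saline, are given as a description, with no p-value.

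RNA sequencing was performed on the tibialis anterior, which lifts the foot, from 16 male mice that were 7 weeks old and labelled with the strain C57BL/6N. Wild-type mice received phosphate-buffered saline (WT_PBS) or the antisense oligonucleotide ASO1 (WT_ASO), and Bin1mck-/- knockout mice received saline (KO_PBS) or ASO1 (KO_ASO), with 4 mice in each group. Antisense oligonucleotides are short synthetic nucleic acids that pair with a messenger RNA and reduce its amount. ASO1 was aimed at Dnm2, the gene of the membrane-cutting GTPase dynamin 2. The mck in the name of the knockout line is not spelled out in the sources used here, and the deleted part of Bin1, the dose and the injection schedule are not given in them.

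Tubulin is the building block of microtubules. One alpha and one beta subunit join in a dimer, dimers add end to end into hollow filaments, and several genes encode nearly the same subunit. Isotypes differ most in the tail at the end of the protein, which projects from the filament and carries modifications such as added glutamates and the removal of the last tyrosine. In muscle fibres, microtubules form a lattice beneath the membrane and around the nuclei, and they position nuclei and carry cargo.

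The ends of the coding sequences of 4 beta isotypes are shown first as examples of how alike the isotypes are. Each line gives the last 60 coding bases with the stop codon, 5′ to 3′ on the coding strand, read from GENCODE transcripts of GRCm38. Capitals mark bases that differ from Tubb5 in a pairwise alignment.
Tubb5, minus strand, chr17:35834982-35835041: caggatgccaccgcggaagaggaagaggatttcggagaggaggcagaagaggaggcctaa
Tubb4b, minus strand, chr2:25222308-25222367: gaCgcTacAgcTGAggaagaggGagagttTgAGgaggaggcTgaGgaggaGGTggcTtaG
Tubb2a, minus strand, chr13:34074468-34074527: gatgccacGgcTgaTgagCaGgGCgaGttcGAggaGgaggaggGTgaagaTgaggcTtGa
Tubb2b, minus strand, chr13:34127471-34127530: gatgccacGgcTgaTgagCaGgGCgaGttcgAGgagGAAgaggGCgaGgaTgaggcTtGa

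These ends separate the isotypes unevenly. Those of Tubb2a and Tubb2b were 95% identical, against 96.5% over the whole coding sequence, whereas Tubb4b and Tubb5 shared 68.3% of the aligned bases. Over the whole coding sequence Tubb6 was 80.3% to 85.9% identical to the other 5 beta genes. The share of 50-base windows of the transcript that also occur in a transcript of another gene was 0% for Tubb6 and Tubb3, 0.115% for Tubb5 and 1.11% for Tuba4a. It was 39.3% for Tubb2b, 49.6% for Tubb2a, 50.9% for Tubb4b, 61.0% for Tuba1c, 72.9% for Tuba1a and 73.8% for Tuba1b. Reads of Tubb6 are therefore unambiguous at this length, while counts of the 3 Tuba1 genes and of the Tubb2 pair could be split or lost, depending on how the counting treated reads with several matches. For Tubb4b the genes that share windows include the processed pseudogenes Tubb4b-ps2 and Tubb4b-ps1, which had mean counts of 2.31 and 1.63 per library, against 1875 to 2296 for Tubb4b in WT_PBS.

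Total counts per library ran from 27591900 to 40862854, and 14960 genes passed the filter on low counts. Bin1, which encodes a membrane-bending protein of the T-tubules, was at 463 to 554 CPM (read counts scaled by library size) in WT_PBS and 40.8 to 47.7 CPM in KO_PBS. Dnm2 was at 59.1 to 67.7 CPM in KO_PBS and 20.7 to 31.1 CPM in KO_ASO, so the labels and these genes go together. All 10 skeletal muscle fibre markers, such as Ckm and Acta1, were detected in every library. Tubb6 lies on chromosome 18, 67390717 to 67402749, on the plus strand, and no counted gene overlaps it on the other strand. Tuba4a, on chromosome 1 from 75214228 to 75219865 on the minus strand, overlaps Stk16, which had a mean of 509.2 counts, and it is not known whether the counting used the strand.

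Among the beta isotypes, Tubb6, which encodes the class V form, moved most. Its levels in WT_PBS were 10.7, 9.13, 11.8 and 9.88 CPM in replicates 1 to 4. In WT_ASO they were 10.1, 7.41, 14.2 and 11.2 CPM. In KO_PBS they were 82.9, 67.7, 69.2 and 67.2 CPM. All 4 saline knockout muscles stood above every wild-type muscle, with no overlap. In KO_ASO the levels were 19.3, 34.1, 18.3 and 40.2 CPM, all above the wild-type muscles and all below the saline knockout muscles. The means were 10.4 ± 1.14 CPM in WT_PBS, 10.7 ± 2.80 in WT_ASO, 71.8 ± 7.49 in KO_PBS and 27.9 ± 10.9 in KO_ASO (SD, n = 4). The KO_ASO mean was thus 38.9% of the KO_PBS mean and 2.69 times the WT_PBS mean.

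**Figure D1:**
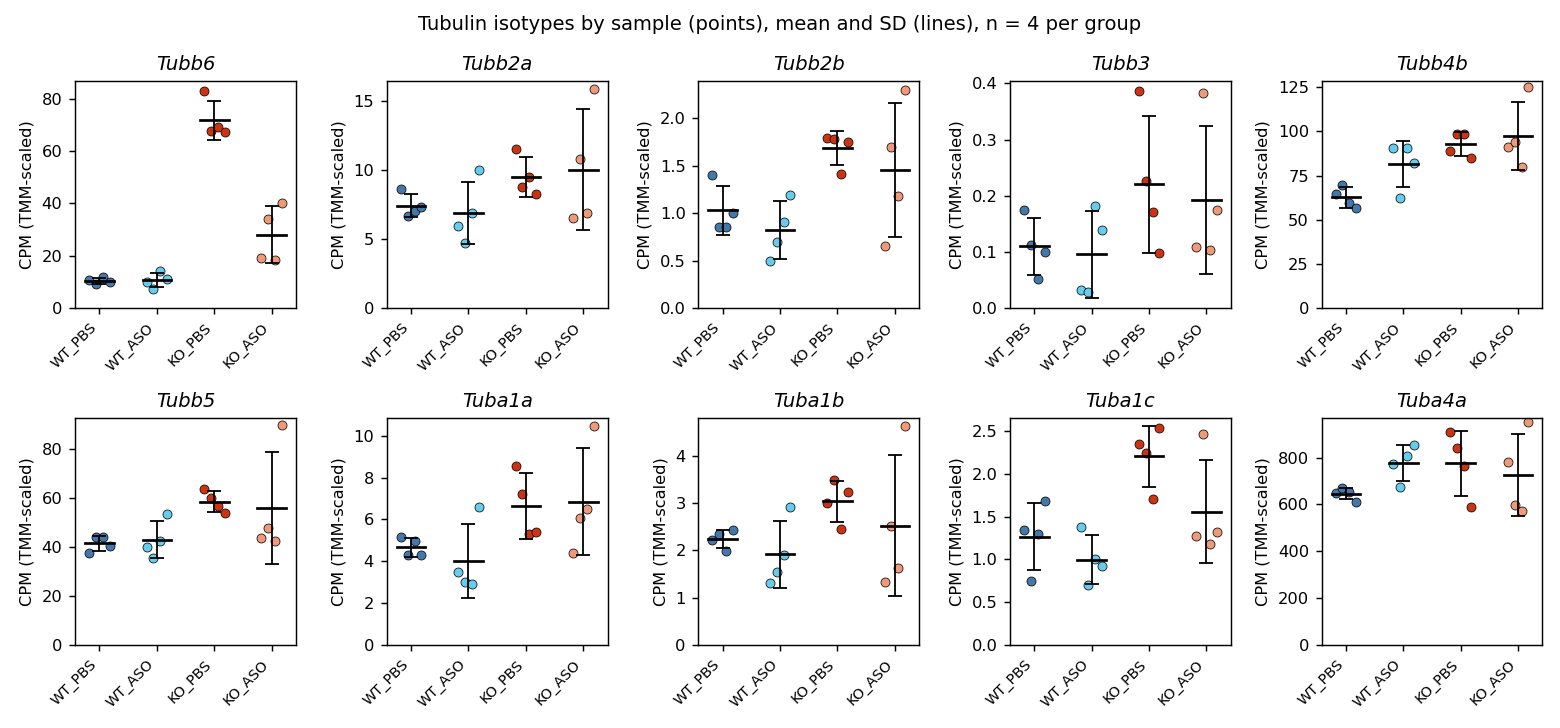
Levels of the 10 tubulin isotypes in TMM-scaled CPM (y axes from 0, a different scale in each panel) by group, with 1 point per mouse and black lines for the mean and SD (n = 4). Tubb6 ran from 67.2 to 82.9 CPM in KO_PBS and from 9.13 to 11.8 CPM in WT_PBS, and replicate 4 of KO_ASO was the highest KO_ASO point in 8 of the 9 isotypes that passed the filter.

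In KO_PBS compared with WT_PBS, the log2 fold change (log2FC) of Tubb6 was 2.79 with an SE of 0.24, a 6.91-fold difference. With edgeR's quasi-likelihood test and a Benjamini-Hochberg adjusted P value under 0.05 over all genes, 2 of the 9 isotypes that passed the filter were called, Tubb6 and Tubb4b, where 12.6% of all tested genes were called. Both were called higher in the knockout, as were 7.43% of all genes. The same 2 calls held in all 23 alternative settings. The count was 4 with library totals as the scale, which added Tubb5 and Tuba1c, and 4 with the compared groups alone, which added Tubb2b and Tubb5. The groups did not overlap, with KO_PBS higher, for 7 of the 9, against 10.5% of all genes. The median log2FC of the 9 was 0.50, and that of all genes was -0.01. Since this contrast may have led to the choice of the set, these counts are read as a description.

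Tubb4b, a widely expressed class IV isotype, was the most abundant beta isotype per kilobase in every group. It was at 64.5, 69.8, 59.6 and 56.6 CPM in WT_PBS. In KO_PBS it was at 89.2, 98.7, 98.6 and 84.8 CPM, all above WT_PBS, with a log2FC of 0.57 and an SE of 0.13. It was also at 90.5, 62.6, 90.4 and 82.2 CPM in WT_ASO. Replicates 1 and 3 of that group fell within the KO_PBS range and the other two below it, and the group overlapped WT_PBS. In KO_ASO it was at 91.2, 93.8, 79.8 and 125.0 CPM, again above all of WT_PBS.

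Tubb5, the class I isotype made in nearly all cells, was at 37.3, 43.8, 44.0 and 40.3 CPM in WT_PBS and at 63.5, 59.8, 56.5 and 53.7 CPM in KO_PBS. The groups did not overlap, and the log2FC of 0.50 (SE 0.19) was not called by edgeR. It was called in 4 of the 23 alternatives, with limma-voom, with library totals, with the compared groups alone and without replicate 4 of KO_ASO. The 4 groups shared 1 estimate of the spread. Replicate 4 of KO_ASO held 89.7 CPM, where the other 3 held 42.4 to 47.8 CPM, and without it the log2FC of Tubb5 between the saline groups was still 0.50, with an SE of 0.11, and passed.

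Tubb2a and Tubb2b encode class II isotypes that are abundant in brain, and Tubb3 encodes the neuronal class III isotype. Tubb2a was at 6.67 to 8.60 CPM in WT_PBS and at 8.23 to 11.5 CPM in KO_PBS, ranges that overlapped, with a log2FC of 0.36 (SE 0.26). Tubb2b was at 0.856 to 1.40 CPM in WT_PBS and at 1.41 to 1.79 CPM in KO_PBS, so the groups lay close without overlapping, with a log2FC of 0.71 (SE 0.32). Tubb3 did not pass the filter and was not tested. Its counts per library were 2 to 6 in WT_PBS, 1 to 6 in WT_ASO, 4 to 14 in KO_PBS and 3 to 12 in KO_ASO, ranges that overlapped.

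Among the alpha isotypes, Tuba4a, the form encoded without the last tyrosine, was the most abundant tubulin. It was at 650.6, 670.9, 653.4 and 612.5 CPM in WT_PBS and at 910.3, 843.1, 762.5 and 589.1 CPM in KO_PBS. Replicates 1 to 3 of the saline knockout were above WT_PBS and replicate 4 was below it, and the log2FC of 0.26 (SE 0.15) was not called. The 3 Tuba1 genes, which serve as general alpha-tubulins, had few reads. Tuba1a was at 4.28 to 5.15 CPM in WT_PBS and 5.29 to 8.57 CPM in KO_PBS. Tuba1b was at 1.997 to 2.43 CPM in WT_PBS and 2.46 to 3.48 CPM in KO_PBS. Tuba1c was at 0.745 to 1.68 CPM in WT_PBS and 1.71 to 2.54 CPM in KO_PBS. None of these 3 pairs of groups overlapped, and none was called by edgeR, with log2FC of 0.50 (SE 0.27), 0.44 (SE 0.31) and 0.79 (SE 0.28). Tuba1c was called in 3 of the 23 alternatives, with DESeq2, with library totals and without replicate 2 of KO_ASO.

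**Figure D2:**
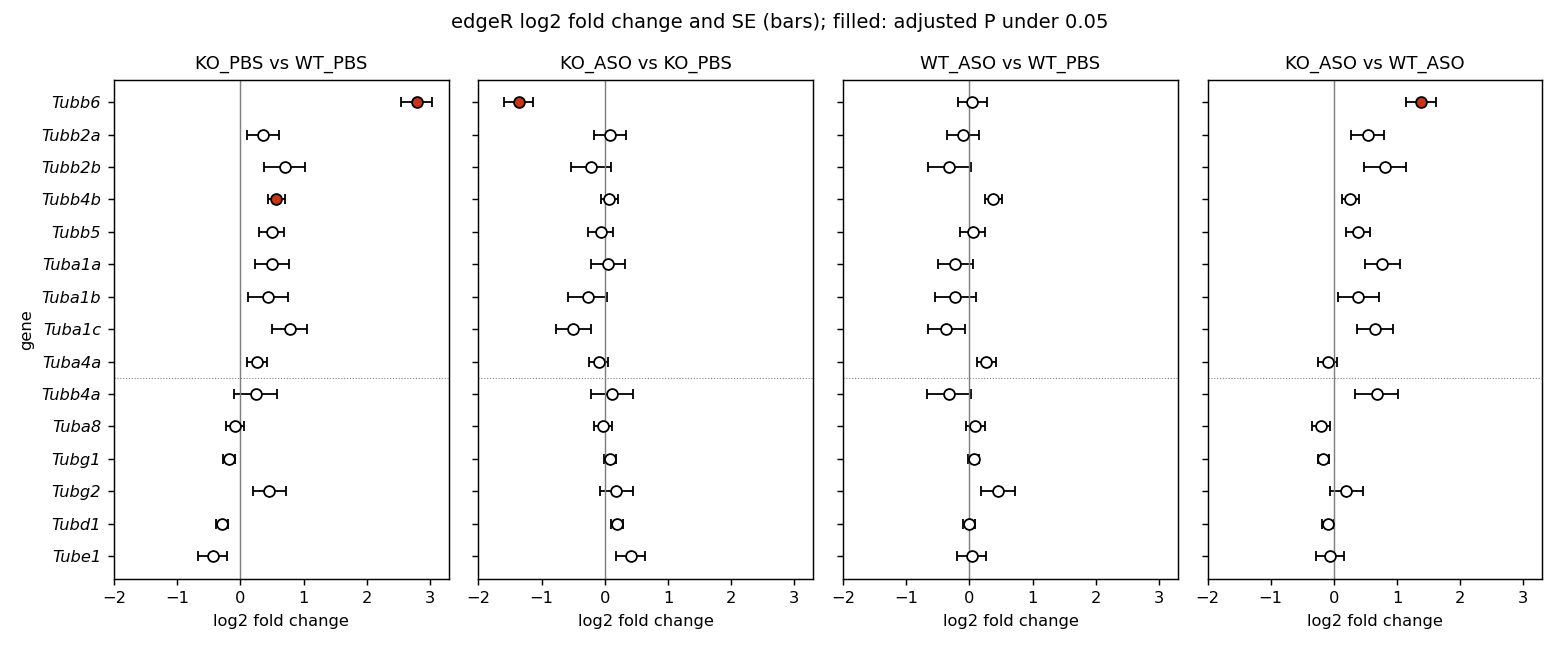
Log2 fold changes from edgeR (x axis, points) with their SE (bars) for the 9 tested isotypes, above the dotted line, and 6 other tubulin genes below it, in 4 comparisons. Filled points were called, which for the isotypes is a description, and Tubb6 is the filled point at 2.79 in KO_PBS vs WT_PBS, at -1.36 in KO_ASO vs KO_PBS and at 1.38 in KO_ASO vs WT_ASO.

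The levels of different isotypes were compared per kilobase of annotated exon. In WT_PBS the order was Tuba4a at 174.8 CPM per kb, the alpha isotype Tuba8 at 89.6, Tubb4b at 29.99 and Tubb5 at 12.4. The gamma-tubulin Tubg1 followed at 11.03, then delta-tubulin Tubd1 at 5.06, Tubb2a at 4.60, Tubb6 at 4.26, Tuba1a at 2.59 and Tuba1b at 1.20. Tubb5 and Tubg1 overlapped over the 4 libraries, and so did Tubd1 and Tubb2a, and Tubb2a and Tubb6. Tubb4a, Tuba1c, Tubg2 and Tubb2b, at 0.449 to 0.559 CPM per kb, overlapped with one another. Tubb3, at 0.0588, was below epsilon-tubulin Tube1, at 0.169. In KO_PBS Tubb6 was at 29.5 CPM per kb, below Tubb4b at 44.4 and above Tubb5 at 17.6, with no overlap to either neighbour. In KO_ASO it was at 11.5 and overlapped both Tubb5, at 16.8, and Tubg1, at 10.3.

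As a share of all beta-tubulin CPM per kb, Tubb6 held 8.15% ± 1.06 in WT_PBS, 7.11% ± 1.04 in WT_ASO, 29.8% ± 2.11 in KO_PBS and 13.6% ± 2.66 in KO_ASO (SD, n = 4). The single libraries ran from 6.75% to 9.33% in WT_PBS, 27.8% to 32.5% in KO_PBS and 11.4% to 17.1% in KO_ASO, without overlap. The share of Tubb4b was 57.2% in WT_PBS and 44.9995% in KO_PBS, and that of Tubb5 was 23.8% and 17.8%, although neither gene was at a lower level in the knockout. The summed beta-tubulin level was 52.4 ± 2.80 CPM per kb in WT_PBS, 61.5 ± 9.60 in WT_ASO, 98.9 ± 5.88 in KO_PBS and 82.6 ± 23.2 in KO_ASO. The summed alpha-tubulin level overlapped among the groups, at 254.2 to 283.1 CPM per kb in WT_PBS and 241.8 to 347.8 in KO_PBS. The ratio of beta to alpha was 0.195 ± 0.00268 in WT_PBS, 0.198 ± 0.0228 in WT_ASO, 0.332 ± 0.0338 in KO_PBS and 0.290 ± 0.0509 in KO_ASO, which overlapped KO_PBS. Within alpha, Tuba4a and Tuba8 together held nearly the whole pool, with Tuba4a at 65.0% in WT_PBS and 69.5% in KO_PBS. Shares of the Tuba1 and Tubb2 genes and of Tubb4b are too low if reads with several matches were left out. With the 10 isotypes alone, and as length 1 transcript of each gene without the windows found in another gene, Tubb6 held 5.33% in WT_PBS, 4.48% in WT_ASO, 21.03% in KO_PBS and 8.92% in KO_ASO.

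**Figure D3:**
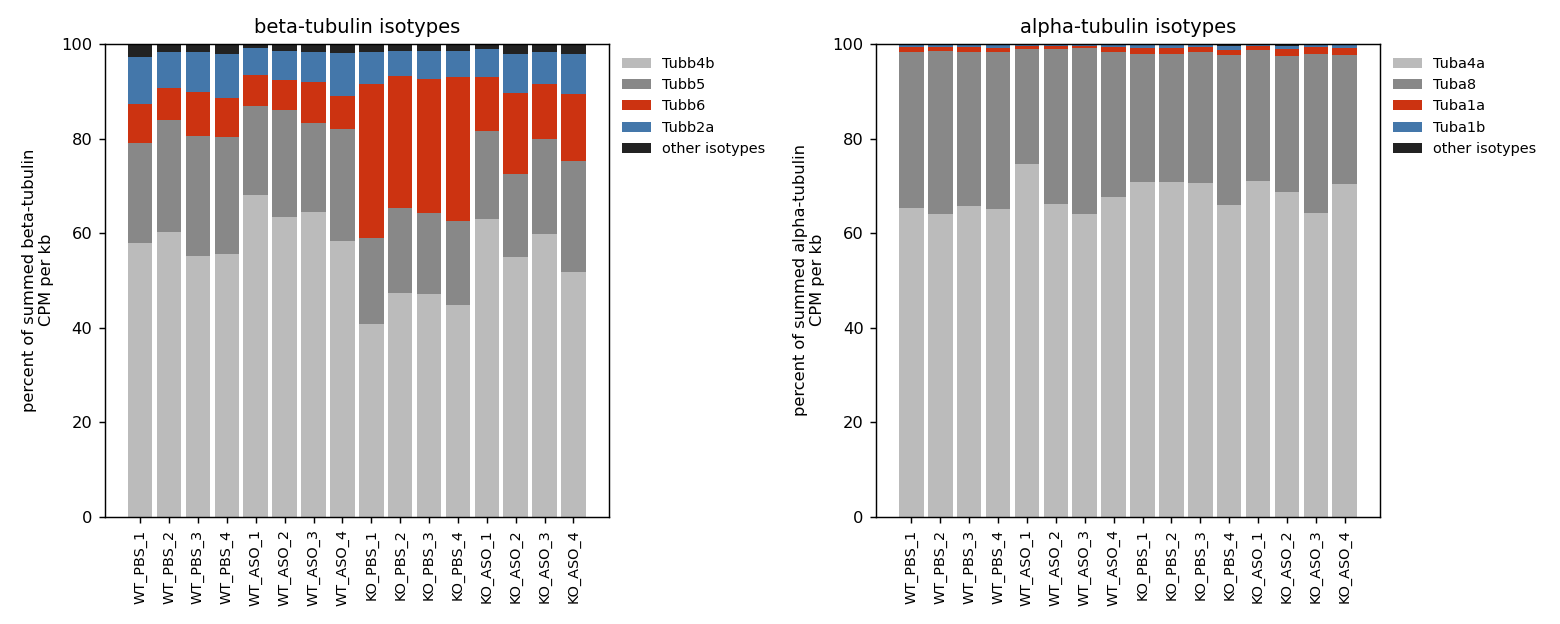
Share of each isotype in the summed CPM per kb of the beta-tubulin genes (left) and the alpha-tubulin genes (right), as stacked bars to 100%, with 1 bar per mouse. The Tubb6 segment held 27.8% to 32.5% of beta-tubulin in the 4 KO_PBS bars and 6.75% to 9.33% in the 4 WT_PBS bars.

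In KO_ASO compared with KO_PBS, Tubb6 fell by 1.36 on the log2 scale (SE 0.23), and it was the 1 isotype of 9 that was called, where 3.64% of all genes were called and 2.83% were called lower. Its groups did not overlap, which 6.34% of all genes showed in that direction. The call held in all 23 alternatives, with log2FC from -1.59 to -1.21. This comparison and the previous one share the KO_PBS libraries, so their values for a gene are not independent, and the call of Tubb6 is read as a description here too. The other 8 tested isotypes had log2FC from -0.50 (Tuba1c) to 0.08 (Tubb2a), all with overlapping groups and edgeR adjusted P values of 0.372 to 0.958. For Tubb4b the log2FC was 0.07, with a 95% interval of -0.19 to 0.33, and for Tubb5 it was -0.07, with an interval of -0.45 to 0.31. So at this precision no fall of the size seen for Tubb6 was within the interval of these 2 genes.

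Replicate 4 of KO_ASO was the highest KO_ASO library for 8 of the 9 tested isotypes, with Tubb2a at 15.9 CPM against 6.52 to 10.8 CPM in the other 3, and Tuba1b at 4.63 CPM against 1.33 to 2.52 CPM. It was also the highest of the 4 for the summed dividing-cell markers, at 26.4 CPM against 2.52 to 4.19 CPM, and for erythroid and platelet markers, at 426.2 CPM against 24.5 to 53.0 CPM. The same held for macrophage markers (81.3 against 52.0 to 63.0 CPM) and fibroblast markers (1842 against 541 to 1687 CPM). It held too for nerve and Schwann cell markers (101.5 against 42.6 to 70.8 CPM) and endothelial and mural markers (1021 against 943 to 1004 CPM). It did not hold for muscle fibre or regenerating muscle markers. The part of these cells in the isotype levels was not tested. Without this library Tubb6 was 1.59 log2 units lower in KO_ASO than in KO_PBS and stayed called, and the other 8 isotypes had log2FC between -0.74 and -0.07, none of them called.

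In the wild type, no isotype was called between WT_ASO and WT_PBS by edgeR, where 1 gene in all, or 0.00668%, was called. At an unadjusted P value under 0.05, reached by 6.45% of all genes, there was 1 isotype, Tubb4b, whose log2FC was 0.38 (SE 0.13) with an edgeR adjusted P value of 0.736, and DESeq2 and limma-voom called 0. Tubb6 had a log2FC of 0.05 (95% interval -0.41 to 0.51). Tuba4a was at 675.4 to 855.3 CPM in WT_ASO, above the 612.5 to 670.9 CPM of WT_PBS without overlap, as 1.80% of all genes were, and its log2FC of 0.27 (SE 0.15) had an edgeR adjusted P value of 0.823.

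Whether the oligonucleotide difference depended on genotype was tested with the interaction. By edgeR 0 of the 9 isotypes were called for this term, where 0.575% of all genes were called, and an unadjusted P value under 0.05 was reached by 12.7% of all genes and 1 of the 9. For Tubb6 the interaction was -1.41 log2 units (SE 0.33), given as a description, since the same libraries led to the choice of the gene. It was called in 4 of the 22 alternatives, with DESeq2, with limma-voom, without replicate 2 of WT_ASO and without replicate 4 of KO_ASO.

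Treated knockout muscle was also set against each wild-type group. In KO_ASO compared with WT_ASO, Tubb6 had a log2FC of 1.38 (SE 0.23) and was the 1 isotype called, where 0.0735% of all genes were called, and its groups did not overlap, as for 2.96% of genes in that direction. In KO_ASO compared with WT_PBS its log2FC was 1.43 (SE 0.23), again the 1 isotype called, where 0.0401% of all genes were called. Both calls lay close to the threshold in edgeR, while DESeq2, which called 422 and 95 genes in all in these comparisons, made both and limma-voom, which called 2 and 7, made neither. The calls, like the others of Tubb6, are a description, since all 16 libraries bore on the choice of the gene. The first held in 5 of 23 alternatives, and among the single libraries left out it held only without KO_PBS replicate 1, KO_ASO replicate 1 or KO_ASO replicate 3. The second held in 7 of 23, among them only without WT_ASO replicates 2 or 3 or KO_ASO replicates 1 or 3. The log2FC itself stayed between 1.15 and 1.58 in both comparisons under all alternatives. Tubb4b in KO_ASO was above all of WT_PBS, as were 2.38% of genes, and its log2FC of 0.64 (SE 0.13) was not called by edgeR and was called by DESeq2, which is also a description.

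Markers of other cells moved with the same groups, and in bulk muscle fewer cells of a type and less RNA per cell cannot be told apart. The 10 macrophage markers were all called higher in KO_PBS than in WT_PBS, such as Cd68 with a log2FC of 3.41 and Cd163 with 1.51, and their summed level was 48.1 to 78.0 CPM in WT_PBS, 50.3 to 111.0 in WT_ASO, 126.6 to 376.1 in KO_PBS and 52.0 to 81.3 in KO_ASO. In KO_ASO this sum overlapped both wild-type groups, and the Tubb6 level was above both. Over the 16 libraries, Pearson's r of log2 CPM with Tubb6 was 0.913 for Cd68 and 0.619 for Adgre1, another macrophage marker, and on deviations from the group means it was 0.605 and 0.0645. These values of r are a description, and those over all libraries hold the group differences. Adgre1 was added outside the rule for naming genes, and r is not given for the other macrophage markers. Of 10 tested markers of regenerating and fetal muscle, 5 were called higher in KO_PBS, among them Ncam1 with a log2FC of 2.26 and Myog with 2.70, and the satellite cell factors Pax7 and Myf5 were called lower. Their summed level was 62.3 to 64.6 CPM in WT_PBS, 67.4 to 71.9 in WT_ASO, 136.6 to 205.3 in KO_PBS and 77.2 to 123.8 in KO_ASO, without overlap between the genotypes. The sum in KO_ASO lay between WT and KO_PBS, as for Tubb6, but single markers differed in this. Ncam1 in KO_ASO, at 11.1 to 16.3 CPM, lay between WT and KO_PBS. Chrna1, at 51.5 to 84.0 CPM in KO_PBS, was at 21.8 to 44.8 in KO_ASO and overlapped WT_ASO (17.2 to 30.6). Myh8 in KO_ASO, at 6.49 to 11.9 CPM, overlapped WT_PBS (6.99 to 10.3). Chrng in KO_ASO, at 0.557 to 1.49 CPM, was within the KO_PBS range of 0.340 to 1.68. The r with Tubb6 over the 16 libraries was 0.959 for Ncam1 and 0.917 for Myog, and on deviations from the group means it was 0.533 and 0.430. The part of these cells in the Tubb6 level was not tested. Of the defining markers, Mymx was at 0 in 3 libraries, and no macrophage marker was at 0 in any.

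**Figure D4:**
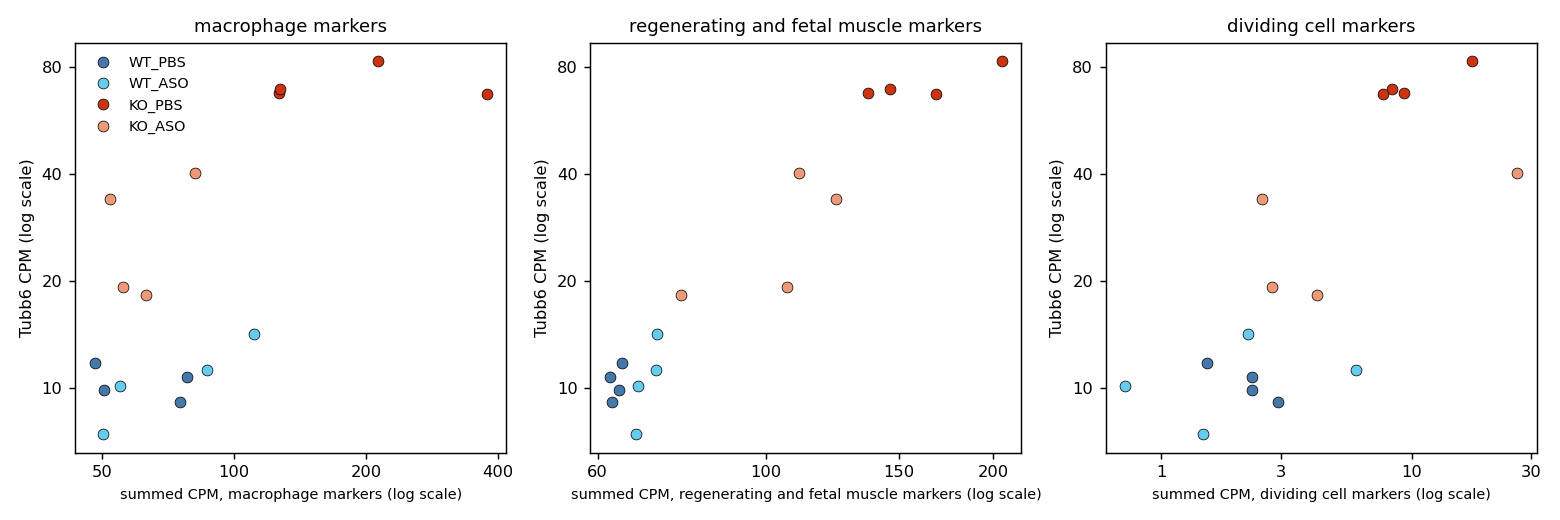
Tubb6 level in CPM (y axes, log scale) against the summed CPM of macrophage, regenerating and fetal muscle, and dividing-cell markers (x axes, log scale), with 1 point per mouse, coloured by group. The KO_ASO points, at 18.3 to 40.2 CPM of Tubb6, lie over the wild-type range of macrophage markers (52.0 to 81.3 against 48.1 to 111.0 CPM) and to the right of the wild-type range of regenerating muscle markers.

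The other marker lists are also set against the 7.43% of all genes called higher and the 5.12% called lower in KO_PBS. The dividing-cell markers summed to 1.53 to 2.94 CPM in WT_PBS, 0.720 to 6.00 in WT_ASO, 7.72 to 17.4 in KO_PBS and 2.52 to 26.4 in KO_ASO, with 2 of 6 tested called higher in KO_PBS, Ccna2 (log2FC 2.34) and Mki67 (2.40). Fibroblast markers summed to 1052 to 1387 CPM in WT_PBS and 1327 to 2324 CPM in KO_PBS, which overlapped, with 3 of 7 called higher, among them Pdgfra (0.95) and Dcn (0.58). Muscle fibre markers summed to 197740 to 239396 CPM in WT_PBS and 160189 to 177624 CPM in KO_PBS, with 4 of 10 called lower, among them Tnnt3 (-0.40) and Tnni2 (-0.37). Nerve and Schwann cell markers summed to 49.5 to 76.6 CPM in WT_PBS and 56.4 to 93.6 CPM in KO_PBS, and 0 of 6 were called by edgeR, with Pmp22 at 0.43 and Sox10 at -0.46. The neurofilament marker Nefl was at 0 in 14 of 16 libraries and Nefm in 7. Of the endothelial and mural markers 1 of 8, Myh11 (-0.45), was called, and Tek (-0.34) was not. Of the erythroid and platelet markers 1 of 6, the chemokine gene Pf4 (2.195), was called, and Hba-a2 (0.51) was not. Pf4 was at 0.830 to 1.53 CPM in WT_PBS and 1.78 to 13.0 CPM in KO_PBS. The platelet markers Ppbp and Gp1bb did not pass the filter, so a change of platelets is not read from Pf4.

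Of the other tubulins, 6 passed the filter, Tuba8, Tubb4a, Tubg1, Tubg2, Tubd1 and Tube1, and none was called in any comparison by edgeR. In KO_PBS compared with WT_PBS their log2FC ran from -0.43 to 0.46, with a median of -0.13. At an unadjusted P value under 0.05, reached by 27.3% of all genes, there was 1, Tubd1. It was at 9.91 to 11.2 CPM in WT_PBS and 7.83 to 9.69 CPM in KO_PBS, without overlap, as for 9.85% of all genes in that direction, and its log2FC was -0.29 (SE 0.10), which DESeq2 and limma-voom each called. Tuba8, which is enriched in striated muscle, was at 190.6 to 221.4 CPM in WT_PBS and 173.7 to 213.8 CPM in KO_PBS, with a log2FC of -0.08 (95% interval -0.36 to 0.20). Tuba3a, Tuba3b and the platelet isotype Tubb1 had at most 3 counts in any library.

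Of 111 tested genes that fold, modify, bind, nucleate or walk on tubulin, other tubulins included, 17 or 15.3% were called in KO_PBS compared with WT_PBS, 13 higher and 4 lower, a share near the 12.6% of all genes, with a median log2FC of 0.04. The count was 27 with library totals as the scale, 10 without the filter, and 11 without WT_PBS replicate 4 or without KO_PBS replicate 1. Among microtubule-associated proteins, 3 of 30 rose, against 7.43% of all genes. The lattice-binding protein Map1a rose from 17.5 ± 1.78 to 52.8 ± 10.9 CPM, which is 1.59 on the log2 scale (SE 0.16, edgeR adjusted P value 1.25e-05). Its relative Map1b rose from 7.09 ± 0.92 to 16.1 ± 3.63 CPM (log2FC 1.19). The actin and microtubule linker Macf1 rose from 81.9 ± 7.91 to 127.8 ± 29.5 CPM (log2FC 0.64). All values are mean ± SD with n = 4, and none of these 3 overlapped between the groups.

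The lists that follow are short, and their counts stand against 7.43% of all genes called higher and 5.12% called lower. Of 19 tested tubulin-modifying genes, 3 rose and 1 fell. The glutamylase subunit Ttll1 rose from 5.16 ± 0.609 to 9.29 ± 0.959 CPM (log2FC 0.85), and its relative Ttll12 rose with a log2FC of 0.50. The tubulin carboxypeptidase Vash2, which takes off the last tyrosine, rose with a log2FC of 1.14 (SE 0.34), with overlapping groups. The glutamylase Ttll4 fell from 23.9 ± 2.35 to 16.5 ± 2.62 CPM (log2FC -0.54). Of 22 folding and assembly genes, the chaperonin subunit Cct3 (0.28) and the tubulin cofactor Tbcc (0.55) rose and the prefoldin subunit Pfdn6 (-0.29) fell. Of 14 nucleation and organising-centre genes, the centrosomal anchor Nin (0.60) and Akap6 (0.50), which anchors the organising centre at the nuclear envelope of muscle cells, rose, and the gamma-tubulin complex subunit Tubgcp6 (-0.33) fell. Of 20 motor genes, the kinesin heavy chain Kif5c (1.14), the dynein light chain Dynll1 (0.88) and the kinesin light chain Klc1 (0.35) rose, and the kinesin Kif1c fell by 0.46.

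In KO_ASO compared with KO_PBS, 7 of the 111, or 6.31%, were called against 3.64% of all genes, all 7 lower. Map1a fell from 52.8 ± 10.9 to 24.96 ± 4.46 CPM, by 1.08 on the log2 scale, with an edgeR adjusted P value of 0.00118. Map1b fell by 0.82, Ttll1 by 0.72, Ttll12 by 0.43, Nin by 0.46, Klc1 by 0.41 and the tubulin cofactor Tbcb by 0.53. Tbcb is named although it was not called in the genotype comparison, since it completes the 7, and it was chosen after its values were seen. Leaving out KO_PBS replicate 1 or KO_ASO replicate 1 lowered the count to 4. It was 11 with library totals, 11 with DESeq2, 13 with limma-voom and 11 with the replicate block. Calls over all genes were then 760, 1056, 1190 and 752, against 544 in edgeR. None of the 111 was called by edgeR in WT_ASO compared with WT_PBS, where 3 had an unadjusted P value under 0.05, against 6.45% of all genes, and DESeq2 and limma-voom called 0. None was called in KO_ASO compared with WT_ASO, where 16 had an unadjusted P value under 0.05, against 15.1% of all genes, and DESeq2 called 2, of 422 genes it called in all, and limma-voom 0. In KO_ASO compared with WT_PBS edgeR again called 0, with 7 at an unadjusted P value under 0.05, against 8.22% of all genes, and 0 by the other tools. For the interaction edgeR called 0, with 15 at an unadjusted P value under 0.05, against 12.7% of all genes, 5 by DESeq2, of 385 genes it called in all, and 0 by limma-voom, of 108.

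The genes outside the tubulin lists whose pattern over the 16 libraries was most like that of Tubb6, by Pearson's r of log2 CPM, were the metallothionein Mt3 (r = 0.974), the nuclear lamin Lmna (0.965), the decoy receptor Tnfrsf23 (0.963), the large scaffold gene Ahnak2 (0.962) and Shisal1 (0.962). These correlations hold the group differences. On deviations from the group means, r with Tubb6 was 0.738 for Mt3, 0.725 for Lmna, 0.525 for Tnfrsf23, 0.669 for Ahnak2 and 0.606 for Shisal1. Mt3 was at 0.965 to 1.71 CPM in WT_PBS, 0.720 to 1.79 in WT_ASO, 22.0 to 27.3 in KO_PBS and 2.18 to 9.82 in KO_ASO. Lmna was at 43.5 to 73.5 CPM in WT_PBS, 119.4 to 147.7 in KO_PBS and 63.0 to 105.2 in KO_ASO. Among the isotypes, r of deviations with Tubb6 was highest for Tubb2a (0.839) and Tubb5 (0.707) and lowest for Tuba1c (0.439). These values of r are given as a description over 16 libraries. Replicate 4 of KO_ASO was the highest KO_ASO library for Tubb6, Tubb2a and Tubb5, and r without it was not computed.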

How the data were processed

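RNA-seq counts from 16 tibialis anterior samples in 4 groups of 4 were analysed. The authors deposited raw counts per Ensembl gene with no normalization. GRCm38, STAR 2.5.3a, HTSeq 0.6.1p1, cutadapt 1.10 and Bowtie2 2.2.8 are listed in the processing notes of the submitters. Per the labels the library kit was stranded and for mRNA. Not given in the sources used here are the strand setting of the counting, the treatment of multiply matching reads, the read length and the annotation release. Groups came from the labels. The series text speaks of groups of mice, and p-values measure the spread between these samples.

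The isotypes, the gene lists and the tests were chosen with earlier results of these data known. All 29730 identifiers matched GENCODE M21 (GRCm38). Genes were filtered with filterByExpr by group (14770 removed), TMM (trimmed mean of M values) factors set the library scale, and edgeR 4.0.16 (R 4.3.3) glmQLFit with robust dispersions and glmQLFTest was run with 1 mean per group over all 16 samples. P values were adjusted by Benjamini-Hochberg over 14960 genes and called under 0.05. CPM are TMM-scaled. CPM per kb divide by the union of annotated exons. Total counts per sample were 27591900 to 40862854, and common biological variation was 18.7%. Same-group samples differed by a mean chi-square per gene of at least 22.2, so none appeared to be a repeat deposit. The fit was tested on simulated counts. The genes named were all isotypes, other tubulins past the filter, Bin1, Dnm2, up to 4 called genes with the smallest p per pathway list and up to 2 per marker list in KO_PBS vs WT_PBS, the 5 genes most correlated with Tubb6 (log2 CPM, prior count 2), and pseudogenes or overlapping genes with counts. Named outside this rule were Adgre1, Pax7, Myf5, Chrna1, Myh8, Chrng, Ckm, Acta1, Tbcb and the uncalled markers Pmp22, Sox10, Tek and Hba-a2. Also named were the low markers Mymx, Nefl, Nefm, Ppbp and Gp1bb and the low tubulins Tuba3a, Tuba3b and Tubb1. Alternatives were RLE size factors in edgeR, library totals in edgeR, the DESeq2 1.42.0 test and limma 3.58.1 voom with quality weights. Further ones were no filter, the compared groups alone, a replicate block, leaving out each sample, and other lengths for the shares. The length without shared windows was added after seeing the data. Coding ends of the alpha isotypes are not reported here.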

Additional observations from a re-analysis of the deposited data

Results flagged for a closer look

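In 60 groups of 4 samples (15 tubulin genes that passed the filter, 4 groups), 5 held a sample whose gap to its nearest neighbour exceeded the critical share of the group's range (Dixon, 95%), and chance gives about 1 in 20 such groups. Tubb6 in KO_PBS replicate 1 was 82.9 CPM, where the other 3 replicates were 67.2 to 69.2 CPM. Tubb2b in KO_PBS replicate 3 was 1.41 CPM, below the others at 1.75 to 1.79 CPM. Tubb5 in KO_ASO replicate 4 was 89.7 CPM against 42.4 to 47.8 CPM. Tuba1a in WT_ASO replicate 4 was 6.61 CPM against 2.91 to 3.47 CPM. Tuba1c in KO_ASO replicate 2 was 2.46 CPM against 1.18 to 1.32 CPM.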

How the results depend on the processing

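The calls of Tubb6 and Tubb4b in KO_PBS vs WT_PBS and of Tubb6 in KO_ASO vs KO_PBS were made in all alternatives, which is a description, since these libraries led to the choice of the genes. With library totals alone, where the median log2FC of all genes in KO_PBS vs WT_PBS was 0.14, and with the compared groups alone, 4 isotypes were called in that comparison. Pathway genes called there were 27 with library totals and 10 without the filter, where 2202 and 1464 genes in all were called against 1878, and 11 to 20 when single samples were left out (11 without WT_PBS replicate 4 or KO_PBS replicate 1). In KO_ASO vs KO_PBS they were 11 with library totals, 11 with DESeq2, 13 with limma-voom, 11 with the replicate block and 4 to 8 without single samples, where calls over all genes were 760 with library totals, 1056 with DESeq2, 1190 with limma-voom and 752 with the replicate block, against 544 in edgeR. In KO_ASO vs WT_ASO 0 isotypes were called with RLE size factors in edgeR, limma-voom, no filter, the compared groups alone or the replicate block, and 0 to 1 without single samples. In KO_ASO vs WT_PBS there were 2 with DESeq2, 0 with limma-voom, no filter, the compared groups alone or the replicate block, and 0 to 1 without single samples. For the interaction there was 1 with DESeq2 and 1 with limma-voom, and 0 to 1 without single samples. The Tubb6 share of beta-tubulin was 5.33% (WT_PBS), 4.48% (WT_ASO), 21.03% (KO_PBS) and 8.92% (KO_ASO) when the pool was the 10 isotypes alone and the length was 1 transcript per gene without shared windows, choices that changed together. The 10 isotypes alone, or the longest transcript, moved it by less than 1 SD. The cause of these shifts was not tested, other than that the compared groups alone hold fewer samples. Log2FC that changed sign, none of them called, were in KO_ASO vs KO_PBS Tubb2a (-0.0029 with totals, -0.15 with limma-voom), Tubb4b (-0.018, -0.058) and Tuba1a (-0.036, -0.14, and -0.0013 with the replicate block), Tubb6 in WT_ASO vs WT_PBS (-0.0042 with totals), Tuba4a in KO_ASO vs WT_ASO (0.0041 with totals), Tuba1b in KO_ASO vs WT_PBS (-0.22 with limma-voom) and Tubb2b in the interaction (-0.060 with limma-voom). Without single samples the ranges that crossed 0 were, in KO_ASO vs KO_PBS, Tubb2a -0.23 to 0.24, Tubb2b -0.53 to 0.033, Tubb4b -0.071 to 0.15, Tubb5 -0.39 to 0.039 and Tuba1a -0.23 to 0.21. In WT_ASO vs WT_PBS they were Tubb6 -0.11 to 0.19, Tubb2a -0.34 to 0.044 and Tubb5 -0.073 to 0.13. In KO_ASO vs WT_ASO they were Tuba1b -0.078 to 0.66 and Tuba4a -0.25 to 0.0065, and in KO_ASO vs WT_PBS Tuba1b -0.30 to 0.38 and Tuba1c -0.030 to 0.45. In the interaction they were Tubb2a -0.13 to 0.41, Tubb2b -0.21 to 0.35, Tubb5 -0.44 to 0.0073, Tuba1a -0.0075 to 0.63, Tuba1b -0.51 to 0.23 and Tuba1c -0.44 to 0.055. Deviations of same-numbered samples of different groups had r from -0.0777 to 0.435 (24 pairs, median 0.0751, 11 over 0.1), and those of different-numbered samples had r from -0.382 to 0.195 (72 pairs, median -0.0268, 8 over 0.1). Same-numbered pairs were thus higher on the median, but no pair of groups had all 4 over 0.1, and the labels give no shared litter or day, so the numbers were not taken as pairing samples. With the replicate block the log2FC of Tubb6 was -1.38 in KO_ASO vs KO_PBS. Calls over all genes with the block were 2322 in KO_PBS vs WT_PBS, against 1878 without it. They were 44 against 11 in KO_ASO vs WT_ASO and 126 against 86 for the interaction. What same-numbered samples may share was not tested. Low counts limit Tubb3, which was not tested, and Tubb2b and Tuba1c, with at most 71 and 103 counts in a library.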
